A study of Mus musculus with 18 samples.

Results

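The genes described here are 10 genes of bile acid synthesis and transport, Cyp7a1, Cyp7b1, Cyp8b1, Cyp27a1, Akr1d1, Baat, Abcb11, Slc10a1, Nr1h4 and Nr0b2. They were listed by name and looked up by symbol in the expression table of each mouse. All 10 were among the 25266 genes of the tables, and all 10 were among the 11090 genes tested. The tables hold RPKM, read numbers normalized to the length of each gene and to library depth. RNA was taken from whole liver of 18 male C57BL/6 mice. FF mice (Ppp6r3 fl/fl) carried a floxed Ppp6r3, the gene of the SAPS3 subunit of protein phosphatase 6, and no Cre. LKO mice carried the same floxed gene together with Alb-Cre, a recombinase driven by the albumin promoter, so that deletion is directed to hepatocytes. Which other cells of the liver keep the gene was not tested. From an age of 8 weeks the mice ate for 16 weeks either a control diet (CD), with 10 kcal% fat, or a high-fat diet (HFD), with fat at 32.5 kcal%. There were 4 FF CD, 4 LKO CD, 5 FF HFD and 5 LKO HFD mice. All groups thus shared the floxed allele, and no group carried Cre without it. The labels describe FF mice as WT and LKO mice as KO in one of their fields. The time of day at collection is not given in the sources used here. The study's methods describe a short fast ahead of the terminal blood collection and do not say whether the sequenced livers came from the same occasion.

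Bile acids are made from cholesterol in hepatocytes, are secreted into bile and return from the gut to the liver. In the classical pathway Cyp7a1 performs the first and rate-limiting step, and Cyp8b1 adds the 12alpha-hydroxyl group that directs synthesis to cholic acid. In the alternative pathway Cyp27a1 oxidizes the side chain of cholesterol and Cyp7b1 hydroxylates the resulting oxysterols. Akr1d1 reduces the steroid ring and Baat joins the product to taurine or glycine. Abcb11 (BSEP) exports bile acids into the canaliculus and Slc10a1 (NTCP) takes them up from blood. Nr1h4 (FXR) is the nuclear receptor that senses bile acids, and Nr0b2 (SHP), one of its targets, represses Cyp7a1 and Cyp8b1.

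Depth was estimated from the steps between low RPKM values of single-exon genes. It was between 23.3 and 37.0 M reads (median 25.7 M over the 18 mice). With the annotated exon length of each gene, the values of the 10 genes rest on 94 to 519 reads per mouse for Nr0b2 and on 11146 to 27205 reads per mouse for Slc10a1, estimates that cover counting error only and would be lower if a shorter transcript had been counted. FF HFD mouse 3 had the lowest summed RPKM of the 18 mice, 312292 against a highest value of 397753. Values without it are given beside several results that it moves. Ppp6r3 was at 8.38, 8.82, 11.0 and 9.17 RPKM in FF CD mice 1 to 4 and at 4.08, 3.88, 4.02 and 3.99 RPKM in LKO CD mice 1 to 4. In HFD-fed mice 1 to 5 it was at 8.82, 7.55, 8.11, 8.47 and 8.22 RPKM in FF mice and at 4.22, 4.42, 4.87, 4.71 and 4.77 RPKM in LKO mice. On both diets all LKO mice were below all FF mice.

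Cyp7b1 was the member of the set that differed in the most comparisons. In FF mice HFD lowered it to 0.239 times its CD level and Cyp8b1 rose 1.89-fold. In LKO mice Slc10a1 fell under HFD to 0.637 times its CD level. In FF mice it was 0.692 times the CD level (adjusted p = 0.0138, limma), under the fold threshold, and the diet effects of the genotypes were not shown to differ (adjusted p = 0.792, limma). Cyp7b1 was 0.416 times the FF level in LKO mice under CD and 2.73 times the FF level under HFD. A gene was called at a fold change above 1.5 on the log2(RPKM + 1) scale with an adjusted p under 0.05 (limma, two-sided, Benjamini-Hochberg adjustment over the 11090 genes tested). By this rule 2 of the 10 genes were called for diet in FF mice, against 6.6% of all genes tested. For diet in LKO mice 1 of 10 was called, against 1.27%. Between LKO and FF mice 1 of 10 was called under CD, against 0.225%, and 1 of 10 under HFD, against 2.07%. The diet difference of LKO mice differed from that of FF mice for 1 of 10, against 2.44%. With 10 genes, each count of 1 is a single gene.

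Counts without the fold threshold were closer to the background in the FF comparison. There 4 of the 10 genes had an adjusted p under 0.05, against 20.6% of all genes tested. In each of the other comparisons it was 1 of 10, against 4.05% for diet in LKO mice, 0.234% for genotype under CD, 4.2% for genotype under HFD and 2.97% for the difference between diet effects. Groups did not overlap for 3 of the 10 genes in FF mice between diets (18.3% of all genes), for 3 in LKO mice between diets (9.04%), for 1 between genotypes under CD (5.07%) and for 3 between genotypes under HFD (4.67%). An unadjusted p under 0.05 was reached between genotypes under HFD by 7 of 10 genes, against 19.3% of all genes, and among these 7 Cyp7b1 alone passed the adjustment. In the other comparisons it was reached by 4 genes for diet in FF mice (33.7% of all genes), 3 for diet in LKO mice (22.3%), 1 for genotype under CD (7.67%) and 4 for the difference between diet effects (16.5%). The median log2 fold change of the 10 genes was -0.29 for diet in FF mice against 0.071 over all genes tested. It was 0.040 against 0.067 for diet in LKO mice, 0.031 against 0.035 for genotype under CD and 0.27 against 0.030 for genotype under HFD.

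**Figure D1:**
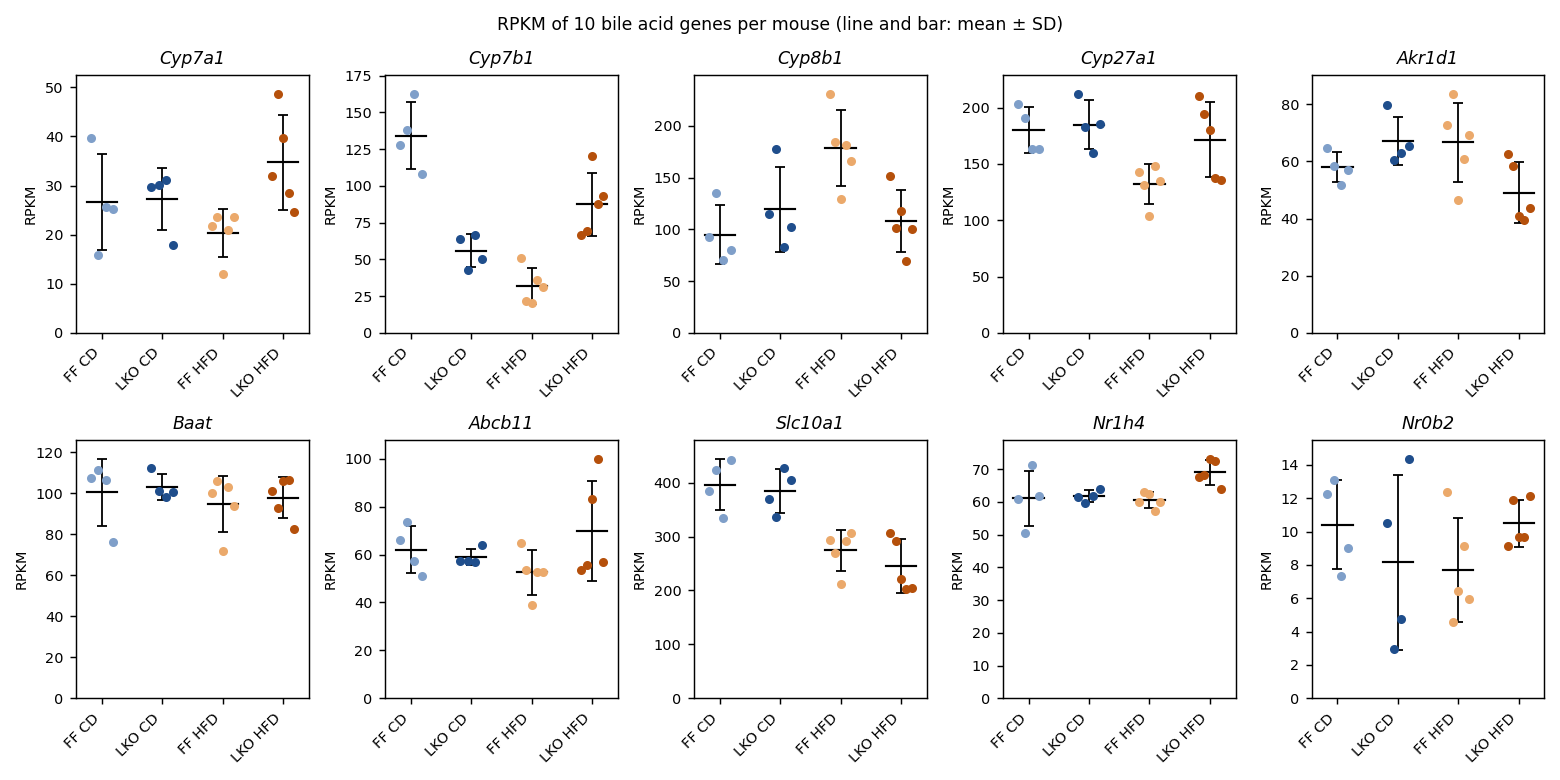
RPKM (y axis, from 0) of each of the 10 bile acid genes in each mouse (points) by group (x axis), with a line at the group mean and a bar of 1 SD, for 4 FF CD, 4 LKO CD, 5 FF HFD and 5 LKO HFD mice. Cyp7b1 runs from 20.4 RPKM in an FF HFD mouse to 163 RPKM in an FF CD mouse, whereas Nr1h4 stays between 50.5 and 73.1 RPKM.

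Slc10a1 was the most abundant of the 10 transcripts in all 4 groups and Nr0b2 the least abundant, with means over the 18 mice of 318 RPKM (SD 78.9) and 9.18 RPKM (SD 3.26). By mean RPKM Slc10a1 ranked 133 and Nr0b2 ranked 3599 among all genes of the tables. In FF CD mice the order from the top was Slc10a1, Cyp27a1, Cyp7b1, Baat, Cyp8b1, Abcb11, Nr1h4, Akr1d1, Cyp7a1 and Nr0b2. The ranges of neighbours overlapped from Cyp7b1 down to Akr1d1 and were separate at the other steps. In FF HFD mice Cyp8b1 stood after Slc10a1 and Cyp7b1 stood after Abcb11, with overlapping ranges between all neighbours. Relative to its mean, Cyp7b1 varied most over the 18 mice (coefficient of variation 55.6%) and Nr1h4 least (8.86%).

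Cyp7b1, the oxysterol 7alpha-hydroxylase, lies on chromosome 3 (18071950 to 18243338, minus strand, positions of GRCm38 in the GENCODE annotation). In FF CD mice 1 to 4 it was at 128, 138, 163 and 108 RPKM. In FF HFD mice 1 to 5 it was at 51.0, 21.6, 20.4, 36.1 and 31.2 RPKM. All HFD mice were below all CD mice, with a log2 fold change of -2.09 (SE 0.23, adjusted p = 1.11e-05, limma). LKO CD mice 1 to 4 were at 63.8, 42.6, 66.4 and 50.6 RPKM, all below the FF CD mice. LKO mice under CD had a log2 fold change against FF mice of -1.26 (SE 0.24, adjusted p = 0.036, limma). This call under CD was lost when 1 of 6 mice was left out, namely FF CD mouse 1, 2 or 3, LKO CD mouse 2 or 4 and FF HFD mouse 5 (adjusted p up to 0.172, limma), with the log2 fold change between -1.35 and -1.14. It was also lost with no filter on low values (adjusted p = 0.122) and with no moderation of the variance (adjusted p = 0.151).

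Under HFD the order of the genotypes was the opposite for Cyp7b1. LKO HFD mice 1 to 5 were at 66.9, 69.2, 120.2, 88.0 and 93.1 RPKM, and each was above all FF HFD mice. Against FF mice the log2 fold change was 1.47 (SE 0.22, adjusted p = 0.000843, limma), or 1.33 without FF HFD mouse 3 (adjusted p = 0.0026, limma). This comparison and the diet comparison in FF mice share the 5 FF HFD mice. Within LKO mice all 5 HFD mice were above all 4 CD mice, but the log2 fold change of 0.63 (95% interval 0.14 to 1.11) did not pass the test (adjusted p = 0.125, limma). The diet difference of LKO mice minus that of FF mice was 2.72 on the log2 scale (SE 0.33, adjusted p = 0.000155, limma), and with any 1 mouse left out it stayed between 2.59 and 2.91. In bulk RNA, fewer cells of a type and less RNA per cell cannot be told apart.

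Cyp27a1, the mitochondrial sterol 27-hydroxylase, lies on chromosome 1 (74713574 to 74737892, plus strand). In FF CD mice 1 to 4 it was at 203, 190.5, 163 and 163 RPKM and in FF HFD mice 1 to 5 at 143, 131, 104, 148 and 135 RPKM. The groups did not overlap, and the log2 fold change of -0.45 (SE 0.14, adjusted p = 0.0318, limma) was under the fold threshold. Without FF HFD mouse 3 the adjusted p was 0.073 (limma). LKO mice held between 159 and 212 RPKM under CD and between 136 and 210.3 RPKM under HFD. Under HFD the difference of LKO from FF mice was 0.36 (95% interval 0.082 to 0.64, adjusted p = 0.14, limma). Without FF HFD mouse 3 this difference was 0.28 (adjusted p = 0.28, limma). With quantile normalization it was 0.37 (adjusted p = 0.0153, limma), under the fold threshold.

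The ratio of Cyp7b1 to Cyp27a1 within a mouse sets side by side the enzymes of the alternative pathway and does not depend on the scaling between mice. It was 0.629 to 0.997 in FF CD mice (median 0.693), 0.233 to 0.417 in LKO CD mice (median 0.287), 0.164 to 0.357 in FF HFD mice (median 0.231) and 0.318 to 0.685 in LKO HFD mice (median 0.640). Every FF CD mouse was above every FF HFD and every LKO CD mouse. The mean log2 ratio differed by -1.65 between diets in FF mice (exact permutation test, two-sided, p = 0.0079, adjusted p = 0.0635 over 16 ratio comparisons). Between LKO and FF mice it differed by -1.29 under CD (exact permutation p = 0.0286, adjusted p = 0.0762) and by 1.10 under HFD (exact permutation p = 0.0238, adjusted p = 0.0762). No ratio comparison passed the adjustment. With 4 mice against 4 the exact test cannot go below 0.0286, and with 4 or 5 against 5 it cannot go below 0.0079.

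Cyp7a1, cholesterol 7alpha-hydroxylase, lies on chromosome 4 (6265612 to 6275633, minus strand). In FF CD mice 1 to 4 it was at 39.7, 15.9, 25.7 and 25.2 RPKM, and in LKO CD mice 1 to 4 at 29.7, 30.1, 31.2 and 17.9 RPKM. In FF HFD mice 1 to 5 it was at 21.7, 23.5, 12.0, 20.9 and 23.7 RPKM, and in LKO HFD mice 1 to 5 at 32.0, 48.7, 39.8, 28.5 and 24.6 RPKM. Under HFD every LKO mouse was above every FF mouse, though the lowest LKO mouse lay just above the highest FF mouse. Against FF mice, LKO mice under HFD had a log2 fold change of 0.74 (95% interval 0.24 to 1.23) and did not pass the test (adjusted p = 0.0846, limma), and it was 0.57 without FF HFD mouse 3 (adjusted p = 0.194, limma). Under CD the difference was 0.068 (95% interval -0.48 to 0.62). The diet difference was -0.34 (95% interval -0.86 to 0.18) in FF mice and 0.33 (95% interval -0.19 to 0.85) in LKO mice. With 1 mouse left out it ranged from -0.55 (FF CD mouse 2) to -0.13 (FF CD mouse 1) in FF mice and was -0.17 without FF HFD mouse 3. In LKO mice it ranged from 0.15 (LKO CD mouse 4) to 0.44 (LKO HFD mouse 5).

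Cyp8b1, sterol 12alpha-hydroxylase, is a single-exon gene on chromosome 9 (121914356 to 121916305, minus strand). In FF CD mice 1 to 4 it was at 92.9, 135, 70.4 and 80.2 RPKM, and in FF HFD mice 1 to 5 at 231, 185, 129, 182 and 166 RPKM. Of the 5 HFD mice, 4 were above all CD mice, and FF HFD mouse 3 overlapped with FF CD mouse 2. HFD raised it by a log2 fold change of 0.93 (SE 0.24, adjusted p = 0.0102, limma), or 1.04 without FF HFD mouse 3. In LKO mice the diet groups overlapped, with 115, 178, 83.2 and 102 RPKM in CD mice 1 to 4 and 152, 102, 118, 69.8 and 100.3 RPKM in HFD mice 1 to 5. Between diets LKO mice differed by a log2 fold change of -0.13 (95% interval -0.63 to 0.37, adjusted p = 0.793, limma). It changed sign when LKO CD mouse 2 (0.079) or LKO HFD mouse 4 (0.016) was left out.

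Under HFD, Cyp8b1 in LKO mice was 0.606 times the FF level, with a log2 fold change of -0.74 (95% interval -1.21 to -0.27) that did not pass the test (adjusted p = 0.0712, limma). It passed with the values of all mice scaled to 1 common sum (adjusted p = 0.0249), with quantile normalization (0.0204), with centring on the median (0.0376) and without LKO HFD mouse 1 (0.0291). The difference between the diet effects of LKO and FF mice was -1.06 (95% interval -1.76 to -0.35, adjusted p = 0.105, limma). Of the same alternatives, centring left it at an adjusted p of 0.0678 and the others brought it under 0.05, to between 0.0350 and 0.0475.

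The ratio of Cyp8b1 to Cyp7a1 sets 12alpha-hydroxylation beside the first step of the classical pathway. It was 7.01 to 10.8 in FF HFD mice (median 8.71) and 2.08 to 4.74 in LKO HFD mice (median 2.96), with no overlap. Under CD it was 2.34 to 8.50 in FF mice (median 2.96) and 2.67 to 5.89 in LKO mice (median 4.79). The mean log2 ratio of LKO HFD mice differed from that of FF HFD mice by -1.48 (exact permutation p = 0.0079, adjusted p = 0.0635), a fold of 0.360. Between diets it differed by 1.27 in FF mice (exact permutation p = 0.0238, adjusted p = 0.0762) and by -0.46 in LKO mice (exact permutation p = 0.214, adjusted p = 0.343). The high value of 8.50 in the FF CD group came from mouse 2, which held the lowest Cyp7a1 and the highest Cyp8b1 of that group.

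**Figure D2:**
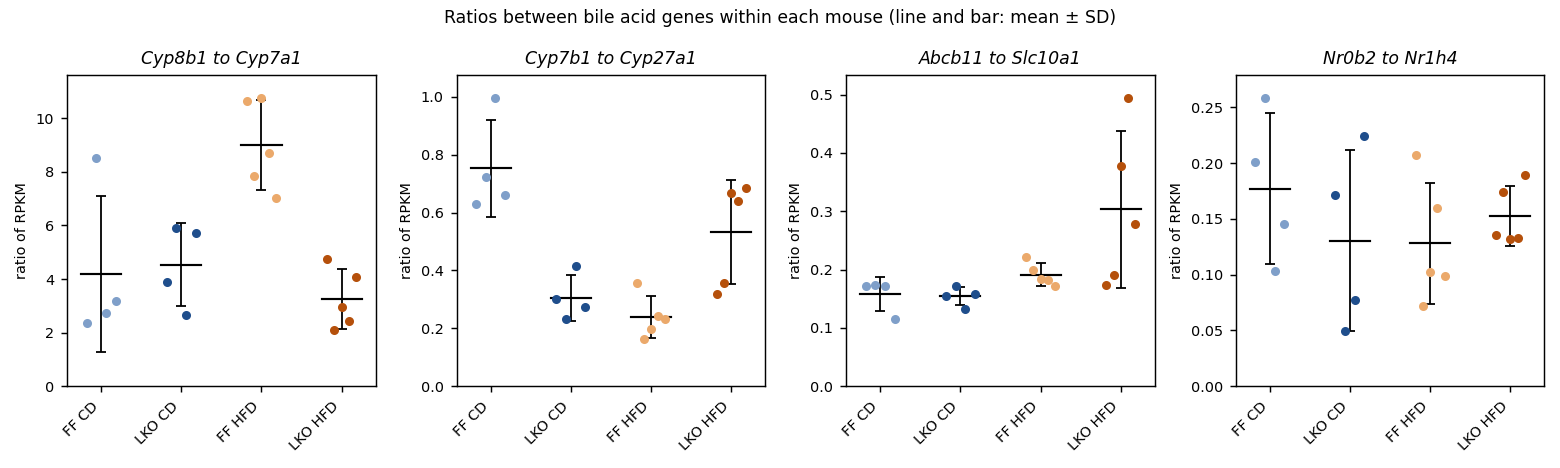
Ratio of the RPKM of 2 bile acid genes within each mouse (y axis, from 0) by group (x axis), with a line at the group mean and a bar of 1 SD. In the panel of Cyp8b1 to Cyp7a1 the FF HFD mice lie at 7.01 or more and the LKO HFD mice at 4.74 or less.

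Nr0b2 (SHP) acts at promoters through partners such as LRH-1, encoded by Nr5a2, whose site is known as CAAGGNC. The 250 bases before the start of Cyp8b1 and of Nr0b2 are shown because they are the promoters among those of the 10 genes that hold this motif, which is in capitals (RefSeq, GRCm38.p6). That of Cyp8b1 is chr9:121916306-121916555 on the minus strand and that of Nr0b2 is chr4:133553126-133553375 on the plus strand.
Cyp8b1: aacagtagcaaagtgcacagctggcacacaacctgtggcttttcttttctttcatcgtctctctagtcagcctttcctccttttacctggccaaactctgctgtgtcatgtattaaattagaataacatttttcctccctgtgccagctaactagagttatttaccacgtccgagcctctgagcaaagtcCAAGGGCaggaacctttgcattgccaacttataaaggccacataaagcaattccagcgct
Nr0b2: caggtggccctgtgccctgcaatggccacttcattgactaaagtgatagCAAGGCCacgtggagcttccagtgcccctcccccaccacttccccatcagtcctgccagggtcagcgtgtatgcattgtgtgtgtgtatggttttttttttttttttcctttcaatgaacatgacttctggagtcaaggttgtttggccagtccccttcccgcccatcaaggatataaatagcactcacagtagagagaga
The motif starts 60 bases before the start of Cyp8b1 and 201 bases before that of Nr0b2. In the window from 250 bases before to 50 bases after the start, 7 of the 10 genes had a promoter sequence, and Cyp7a1, Cyp7b1 and Baat had none. Searched on both strands, CAAGGNC was in 2 of the 7 and in 17.8% of 32851 promoters. The hexamer AGGTCA was in 4 of the 7 (Akr1d1, Abcb11, Slc10a1 and Nr1h4) and in 16.3% of promoters, and the IR-1 element of FXR was in none of the 7 and in 0.00913% of promoters. The counts are of genes and the shares are of promoters. Slc10a1 had a further promoter inside the gene, and the hexamer was in that promoter only. The promoter of Nr1h4 (chr10:89506609-89506908) also lies inside the gene and not at its annotated start. These matches describe letters in a window and not binding. The IR-1 element was searched only as an exact match, which 3 of 32851 promoters held. Forms of it with a mismatch were not searched, so its count cannot show that the promoters of the 7 genes lack an FXR element.

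Akr1d1, the 5beta-reductase, lies on chromosome 6 (37530173 to 37568815, plus strand). It held 51.9 to 64.8 RPKM in FF CD mice (median 57.8), 60.5 to 79.6 RPKM in LKO CD mice (median 64.2), 46.7 to 83.7 RPKM in FF HFD mice (median 69.2) and 39.5 to 62.7 RPKM in LKO HFD mice (median 43.8). Under HFD its log2 fold change in LKO against FF mice was -0.43 (95% interval -0.75 to -0.12, adjusted p = 0.118, limma). The diet difference was 0.17 in FF mice (adjusted p = 0.478) and -0.46 in LKO mice (adjusted p = 0.105), and the difference between them, -0.64, did not pass the test (adjusted p = 0.152, limma) but did with the values of all mice scaled to 1 common sum (adjusted p = 0.0398). Without FF HFD mouse 3 the genotype difference under HFD was -0.55, with an adjusted p of 0.0421 (limma) and a fold under the threshold, and the diet difference in FF mice was 0.29.

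Baat, the conjugating enzyme on chromosome 4 (49489422 to 49506557, minus strand), stayed within 72.0 to 113 RPKM over the 18 mice. Its group medians were 107 RPKM in FF CD, 101 in LKO CD, 100.2 in FF HFD and 101 in LKO HFD mice. The 95% intervals of its differences lay between -0.34 and 0.33 on the log2 scale in all 4 pairwise comparisons. Without FF HFD mouse 3 its diet difference in FF mice went from -0.077 to 0.019 and its genotype difference under HFD from 0.049 to -0.046.

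Slc10a1, the uptake carrier, lies on chromosome 12 (80953183 to 80968705, minus strand). In LKO CD mice 1 to 4 it was at 369.9, 336, 428 and 405 RPKM and in LKO HFD mice 1 to 5 at 307, 291, 221, 202 and 205 RPKM. All HFD mice were below all CD mice, and the log2 fold change was -0.67 (SE 0.14, adjusted p = 0.0229, limma). The call was lost without any 1 of LKO CD mice 1, 3 or 4 or LKO HFD mouse 3 (adjusted p up to 0.0806) and in a fit of the LKO mice alone (adjusted p = 0.0684). FF CD mice 1 to 4 were at 385, 423, 334 and 443 RPKM and FF HFD mice 1 to 5 at 293, 269, 211, 291 and 306 RPKM, again with no overlap. In FF mice the log2 fold change was -0.53 (SE 0.14, adjusted p = 0.0138, limma), under the fold threshold. It was past that threshold with centring on the median (-0.63, adjusted p = 0.00505) and without FF CD mouse 3 (-0.61, adjusted p = 0.0147). Without FF HFD mouse 3 it was -0.44 (adjusted p = 0.033, limma). The diet difference of LKO mice minus that of FF mice was -0.13 (95% interval -0.56 to 0.30, adjusted p = 0.792, limma). Between genotypes the difference was -0.041 under CD (95% interval -0.36 to 0.28) and -0.17 under HFD (95% interval -0.46 to 0.11).

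Abcb11, the export pump, lies on chromosome 2 (69238282 to 69342616, minus strand). It held 51.2 to 73.6 RPKM in FF CD mice, 57.0 to 64.1 in LKO CD mice and 38.8 to 64.8 in FF HFD mice. In LKO HFD mice 1 to 5 it was at 53.4, 55.5, 83.4, 100.0 and 57.0 RPKM. Mice 3 and 4 stood above all other mice of the study, and the other 3 lay within the range of the FF mice. Under HFD the difference of LKO from FF mice was 0.38 (95% interval 0.031 to 0.72, adjusted p = 0.218, limma). The diet difference in FF mice was -0.24, and -0.14 without FF HFD mouse 3. The ratio of Abcb11 to Slc10a1 was 0.133 to 0.171 in LKO CD mice and 0.174 to 0.495 in LKO HFD mice. The mean log2 ratio differed by 0.86 between them (exact permutation p = 0.0397, adjusted p = 0.0907).

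Nr1h4, the bile acid receptor, lies on chromosome 10 (89454234 to 89533585, minus strand). It held 50.5 to 71.2 RPKM in FF CD mice, 59.5 to 63.9 in LKO CD mice and 57.4 to 63.2 in FF HFD mice. LKO HFD mice 1 to 5 were at 67.6, 68.1, 73.1, 72.6 and 64.0 RPKM, each above all FF HFD and all LKO CD mice. Under HFD the log2 fold change of LKO against FF mice was 0.19 (95% interval 0.017 to 0.35, adjusted p = 0.214, limma), and that of diet in LKO mice was 0.16 (95% interval -0.019 to 0.34, adjusted p = 0.282, limma).

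Nr0b2, the repressor, lies on chromosome 4 (133553376 to 133556536, plus strand) and had, in LKO CD mice, the widest spread of the 10 genes within a group relative to the mean. It was at 12.2, 13.1, 7.36 and 9.01 RPKM in FF CD mice 1 to 4 and at 10.5, 2.96, 4.78 and 14.4 RPKM in LKO CD mice 1 to 4. In FF HFD mice 1 to 5 it was at 12.4, 4.55, 6.42, 9.16 and 5.94 RPKM and in LKO HFD mice 1 to 5 at 9.14, 11.9, 9.68, 9.67 and 12.1 RPKM. The groups overlapped in all comparisons, and the log2 differences were -0.43 for diet in FF mice (95% interval -1.10 to 0.23), 0.52 for diet in LKO mice (-0.14 to 1.18), -0.49 for genotype under CD (-1.19 to 0.21) and 0.47 for genotype under HFD (-0.16 to 1.09). Its ratio to Nr1h4 had medians of 0.173 in FF CD, 0.124 in LKO CD, 0.103 in FF HFD and 0.135 in LKO HFD mice, and the exact permutation p was 0.302 or more in all 4 comparisons.

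Textbook links between the genes were examined across the 18 mice after the group means had been removed. Over 5 pairs, Pearson's r was -0.25 for Nr1h4 and Nr0b2 (Spearman's rho -0.23), -0.25 for Nr0b2 and Cyp7a1 (rho -0.27), 0.024 for Nr0b2 and Cyp8b1 (rho 0.13), 0.23 for Nr0b2 and Abcb11 (rho 0.36) and 0.11 for Cyp7a1 and Cyp8b1 (rho 0.20). Permutation within groups (100000 resamples, two-sided) gave unadjusted p-values of 0.204, 0.365, 0.948, 0.177 and 0.702 for r and of 0.335, 0.307, 0.665, 0.0958 and 0.470 for rho, and the smallest p adjusted over the pairs was 0.479. Without the 2 mice farthest from the median of the first gene r was -0.045, -0.028, 0.47, 0.23 and 0.20. No pair was thus shown to vary together.

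**Figure D3:**
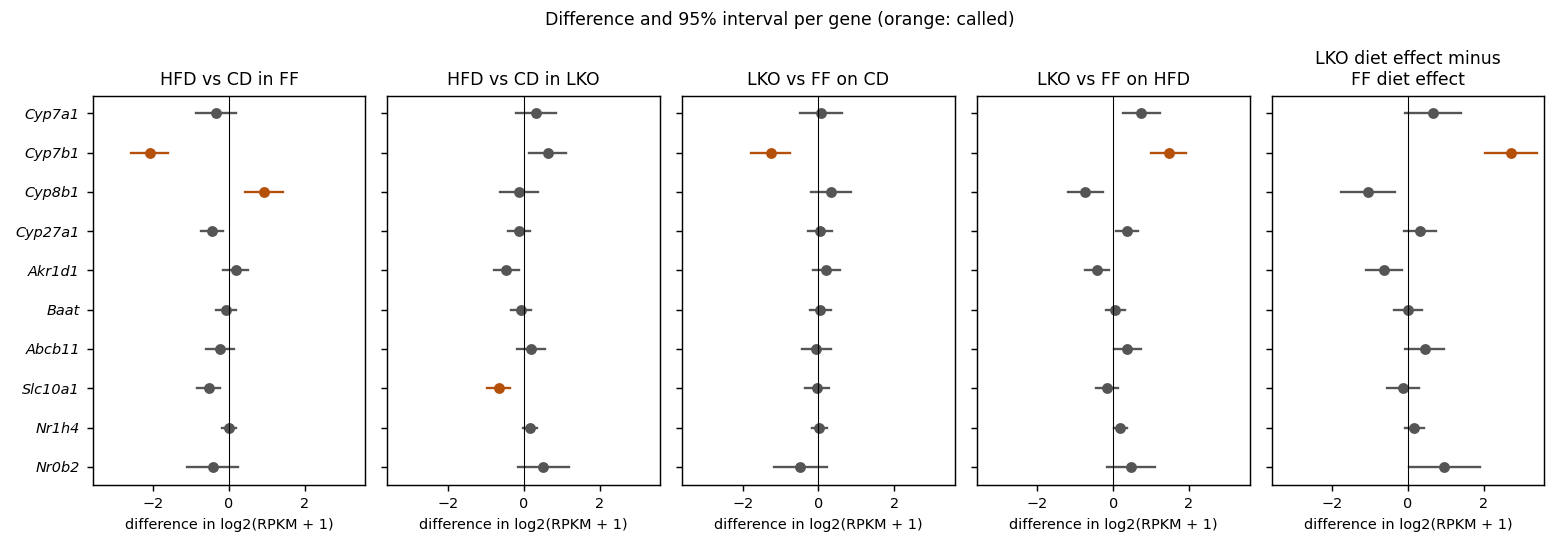
Difference in log2(RPKM + 1) (x axis) of each of the 10 genes (y axis) in 5 comparisons, with 95% intervals from the limma fit of 18 mice and called genes in orange. Cyp7b1 is at -2.09 for diet in FF mice, -1.26 for LKO against FF mice under CD, 1.47 under HFD and 2.72 for the difference between the diet effects.

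The other genes of the pathway were counted by list. Of 13 tested genes of synthesis and conjugation, HFD in FF mice raised 2 and lowered 1, against 6.6% of all genes called in either direction. Cyp2c70, which makes the muricholic acids of mice, fell from 173 to 287 RPKM under CD to 53.2 to 91.6 RPKM under HFD (log2 fold change -1.72, adjusted p = 3.17e-05, limma). Hsd17b4, the peroxisomal enzyme that shortens the side chain, rose by 0.87 (adjusted p = 8.75e-05), and Cyp46a1, a cholesterol 24-hydroxylase known from brain, rose by 1.38 (adjusted p = 0.00926). In LKO mice 0 of the 13 were called for diet, against 1.27% of all genes (limma, 1 had an unadjusted p under 0.05), and between genotypes under CD 0 were called, against 0.225% (4 had an unadjusted p under 0.05). Under HFD 1 of 13 was called, against 2.07%, namely Cyp2c70, which was 96.2 to 170.3 RPKM in LKO mice, above all FF mice (log2 fold change 0.94, adjusted p = 0.0109, limma).

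The diet effects of LKO and FF mice differed for these 3 genes of the 13, against 2.44% of all genes. The difference was 1.41 for Cyp2c70 (adjusted p = 0.0134, limma), -1.90 for Cyp46a1 (adjusted p = 0.0422) and -0.70 for Hsd17b4 (adjusted p = 0.0273). That of Cyp2c70 was called with each mouse left out, whereas the call was lost without any 1 of 14 mice for Cyp46a1 (all but LKO CD mice 1 and 3, FF HFD mouse 3 and LKO HFD mouse 1, adjusted p up to 0.108). For Hsd17b4 it was lost without 1 of 5 mice, FF CD mouse 3 or 4, LKO CD mouse 2 or 4 and FF HFD mouse 2 (adjusted p up to 0.077). Mean RPKM under CD in LKO against FF mice was 172 against 239 for Cyp2c70, 4.47 against 1.19 for Cyp46a1 and 140 against 110 for Hsd17b4. In LKO mice HFD minus CD was -0.31, -0.53 and 0.17 in the same order, with none called.

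Of 14 tested transporters and carriers, 5 rose and 1 fell under HFD in FF mice, against 6.6% of all genes called in either direction. Abcc3 (MRP3), which exports bile acids back to blood, rose from 7.19 to 18.4 RPKM to 39.8 to 57.9 RPKM (log2 fold change 2.07, adjusted p = 8.79e-06, limma). Abcb4, the phospholipid flippase of the canaliculus, rose by 0.78 (adjusted p = 0.000772) and Ephx1, the microsomal epoxide hydrolase, by 1.31 (adjusted p = 0.000351). Abcb1a rose by 0.81 (adjusted p = 0.000479) from a level under 1 RPKM. Slco1a4, an organic anion carrier, rose by 1.27 (adjusted p = 0.0276), a call lost without 1 of 4 mice, FF CD mouse 1 or 2 and FF HFD mouse 2 or 4 (adjusted p up to 0.102). Slco1a1, a related carrier, fell by 2.67 on the log2 scale (adjusted p = 0.00246), from 114 to 154 RPKM to 4.47 to 62.2 RPKM. For diet in LKO mice and for genotype under CD 0 of the 14 were called (limma), against 1.27% and 0.225% of all genes, with an unadjusted p under 0.05 for 1 and 3 of them.

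Between genotypes under HFD 2 of the 14 were called, against 2.07% of all genes. Slco1a1 was 83.1 to 128 RPKM in LKO mice, above all FF mice (log2 fold change 2.31, adjusted p = 0.0181, limma, and 0.0518 without LKO HFD mouse 3). Abcb1a was lower in LKO mice by 0.71 (log2 fold change -0.71, adjusted p = 0.00408). The diet effect was smaller in LKO than in FF mice for Abcc3 (difference -1.69, adjusted p = 0.00558) and Abcb1a (-0.98, adjusted p = 0.00778), with each mouse left out as well. It also differed for Ephx1 (-1.18, adjusted p = 0.0368) and Slco1a4 (-2.08, adjusted p = 0.0488), but each of these calls was lost without any 1 of 12 mice (adjusted p up to 0.0992 and 0.118). The exceptions, whose removal kept the call, were FF CD mouse 2, LKO CD mouse 1, FF HFD mice 4 and 5 and LKO HFD mice 1 and 4 for Ephx1. For Slco1a4 they were FF CD mouse 4, LKO CD mouse 3, FF HFD mice 1 and 3 and LKO HFD mice 1 and 2. Mean RPKM under CD was 23.6 in LKO against 12.0 in FF mice for Abcc3 and 0.686 against 0.399 for Abcb1a. It was 155 against 89.1 for Ephx1 and 14.9 against 6.09 for Slco1a4, with none of them called. In LKO mice HFD minus CD was 0.38, -0.16, 0.14 and -0.81 in the same order. The differences between diet effects include these CD levels.

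Of 17 tested regulators and receptors, 1 was called for diet in FF mice, no more than the background of 6.6% of all genes. In the other 3 pairwise comparisons 0 were called (limma), against 1.27% for diet in LKO mice, 0.225% for genotype under CD and 2.07% for genotype under HFD. There 5, 4 and 4 of the 17 had an unadjusted p under 0.05, against 22.3%, 7.67% and 19.3% of all genes. Nr1i3 (CAR), a nuclear receptor of xenobiotics, rose under HFD in FF mice by 0.99 (adjusted p = 0.000746, limma). The diet effects differed for 1 of the 17, against 2.44%, namely Nr1i2 (PXR), a related receptor that bile acids can activate. Its difference was -0.67 (adjusted p = 0.0228, limma), a call lost without FF CD mouse 3 (adjusted p = 0.0663) or LKO CD mouse 4 (adjusted p = 0.051). Mean RPKM of Nr1i2 under CD was 27.0 in LKO against 21.8 in FF mice, not called. Nr5a2, Hnf4a, Fgfr4 and Klb, which regulate Cyp7a1 or receive the FGF15 signal from the gut, were not called in any comparison, and were chosen after their values were seen. Under HFD their log2 differences of LKO from FF mice were 0.27 (adjusted p = 0.163), 0.053 (0.862), 0.21 (0.417) and 0.23 (0.356).

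**Figure D4:**
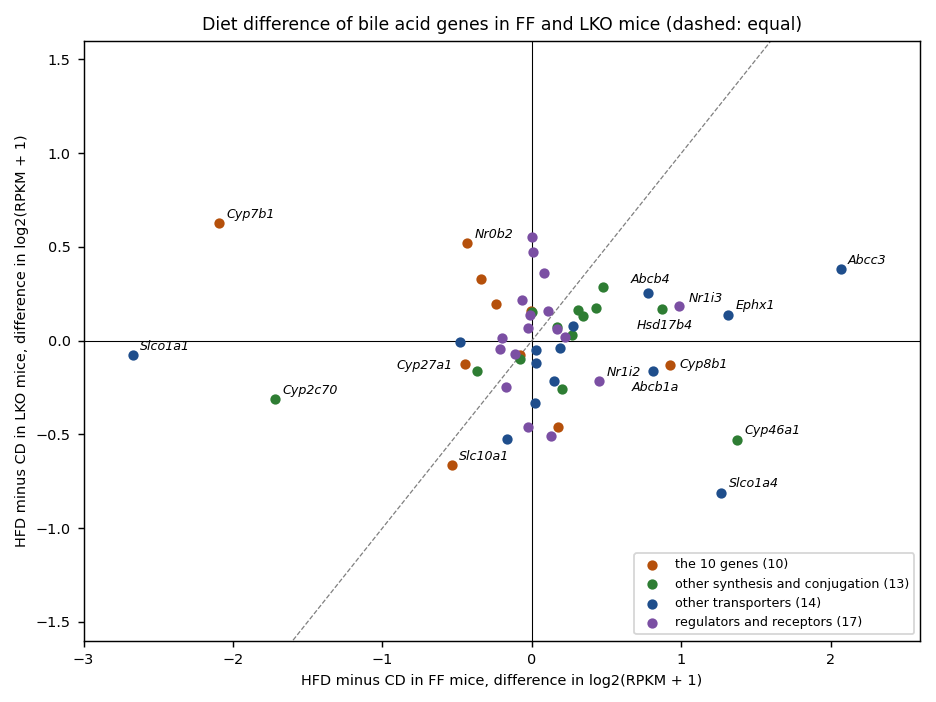
Diet difference of FF mice (x axis) against that of LKO mice (y axis), both as HFD minus CD in log2(RPKM + 1), for the 10 genes and the tested genes of the 3 other bile acid lists. Slco1a1, Cyp7b1 and Cyp2c70 lie to the left at -2.67, -2.09 and -1.72 in FF mice and between -0.31 and 0.63 in LKO mice, and Abcc3 lies to the right at 2.07 in FF mice and 0.38 in LKO mice.

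Cyp7a1 is known to vary with time of day and Cyp7b1 with sex, and clock genes and sex-biased genes of liver were examined beside them. Of 14 tested clock genes 0 were called in any comparison (limma), against 0.225% to 6.6% of all genes. An unadjusted p under 0.05 was reached by 4 for diet in FF mice (33.7% of all genes) and by 4 for diet in LKO mice (22.3%). For genotype it was reached by 3 under CD (7.67%) and by 5 under HFD (19.3%). For the difference between diet effects it was reached by 1 (16.5%). Npas2 was under 0.1 RPKM in every mouse. Arntl, the other clock gene too low to be tested, had means of 0.287 RPKM in FF CD, 0.270 in LKO CD, 0.491 in FF HFD and 0.378 in LKO HFD mice. The summed RPKM of the list was 224 to 236 in FF CD, 173 to 222 in LKO CD, 171 to 221 in FF HFD and 158 to 243 in LKO HFD mice. Of 13 genes with higher expression in male than female liver, which include Slco1a1, 10 fell under HFD in FF mice (6.6% of all genes called). In LKO mice 1 rose under HFD (1.27%). Against FF mice, 3 were lower in LKO mice under CD (0.225%) and 7 were higher in LKO mice under HFD (2.07%). The diet effects of LKO and FF mice differed for 9 of the 13 (2.44%). Their summed RPKM was 19990 to 27490 in FF CD, 6361 to 12470 in LKO CD, 4239 to 9899 in FF HFD and 10030 to 22600 in LKO HFD mice. By the median of this sum the groups stood in the same order as for Cyp7b1, with FF CD the highest and FF HFD the lowest. Mup20 and Mup7 made up most of the sum, with means of 15530 and 6583 RPKM in FF CD mice. The order of the sum is thus not that of each gene. The medians of Mup20, Selenbp2, Ugt2b38, Susd4, Slco1a1 and Moxd1 stood in the order of Cyp7b1. That of Slco1a1 was 111 RPKM in LKO HFD and 108.5 RPKM in LKO CD mice. Moxd1 had medians under 0.1 RPKM outside FF CD mice. Hsd3b5, Cyp2d9 and Cyp4a12b also had their highest median in FF CD and lowest in FF HFD mice, but were lower in LKO HFD than LKO CD mice. Mup7 had its lowest median in LKO CD mice. These are the 10 genes that fell, so FF HFD below FF CD is part of their choice, and the order was not tested. Of 5 tested female-biased genes of 13 listed, 4 rose under HFD in FF mice (6.6% of all genes called). Against FF mice, 1 was higher in LKO mice under CD (0.225%) and 3 were lower in LKO mice under HFD (2.07%). The diet effects differed for 3 of the 5 (2.44%). Both lists hold near-identical copies (Mup, Cyp2a and Cyp4a12 genes) whose reads may be split. The part of the sex-biased program in the result for Cyp7b1 was not tested.

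Cell type markers were read as a check of the tissue. Their calls stand beside 6.6% of all genes called for diet in FF mice, 1.27% for diet in LKO mice and 2.07% for genotype under HFD. Of 6 hepatocyte markers 5 were in the tables, with a summed RPKM of 33310 to 41580 in FF CD, 40630 to 50550 in LKO CD, 35190 to 45010 in FF HFD and 38430 to 45850 in LKO HFD mice. Alb made up most of this sum. Apoa1, Cps1 and Serpina1c were lower under HFD in FF mice, and Apoa1 was higher in LKO than FF mice under HFD. Alb and Ttr were not called. In FF mice their means were higher under HFD, at 29910 against 25680 RPKM for Alb and 2855 against 2641 RPKM for Ttr. Sinusoidal endothelium markers rose for 4 of 5 genes under HFD in FF mice, with a summed RPKM of 12.9 to 28.2 in FF CD, 10.2 to 29.7 in LKO CD, 34.3 to 55.0 in FF HFD and 25.9 to 37.5 in LKO HFD mice. Kupffer cell markers rose for 2 of 6 genes under HFD in FF mice and for 1 in LKO mice, with a summed RPKM of 40.2 to 58.1 in FF CD, 33.5 to 54.6 in LKO CD, 48.6 to 91.9 in FF HFD and 46.8 to 91.4 in LKO HFD mice. Of 5 stellate cell markers Col1a1 rose under HFD in FF mice and was lower in LKO than FF mice under HFD, with a summed RPKM of 55.8 to 80.1 in FF CD, 56.0 to 92.5 in LKO CD, 67.4 to 99.9 in FF HFD and 49.3 to 97.0 in LKO HFD mice. The part of these cell types in the diet differences of Cyp7b1, Cyp8b1 and Slc10a1 was not tested.

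Of 7 cholangiocyte markers 4 were tested and 0 called in any comparison, against 0.225% to 6.6% of all genes. An unadjusted p under 0.05 was reached by 1 in LKO mice between diets (22.3% of all genes) and by 1 between genotypes under CD (7.67%). Cftr was under 0.1 RPKM in every mouse. Their summed RPKM was 24.0 to 35.5 in FF CD, 21.9 to 41.5 in LKO CD, 26.8 to 70.5 in FF HFD and 27.5 to 74.0 in LKO HFD mice. Adipocyte markers were too low to be tested, with a summed RPKM of 0 in all CD mice and of up to 1.13 in FF HFD mice. Of 4 ileum markers, Fgf15 and Fabp6 were under 0.1 RPKM in every mouse. Slc10a2, which is also on the cholangiocyte list, was at 4.79 to 19.3 RPKM over all mice. Vil1 was at 1.28 RPKM in FF HFD mouse 3 and at 0.131 RPKM or less in every other mouse.

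Over the 18 mice, the transcripts with the pattern most like that of a called gene were taken from 9729 genes with a mean of at least 1 RPKM. By Pearson's r of log2(RPKM + 1), which includes the differences between groups, they were Serpina1e (r = 0.945), Egfr (0.944) and C6 (0.934) for Cyp7b1. They were Mipep (0.929), Ormdl3 (0.918) and Uck1 (0.907) for Cyp8b1, and Sucnr1 (0.945), Ptms (0.892) and Ghr (0.890) for Slc10a1. Serpina1e has near-identical copies among which reads may be split.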

How the data were processed

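RNA-seq was performed on liver of 18 mice. The submitters' processing notes name HISAT2 2.0.4, Partek and the mm10 genome, and the authors deposited an RPKM value for each of 25266 genes in each mouse. The counting tool, the annotation, the use of strand and the handling of multimapping reads are not given in the sources used here. The protocol in the labels names a kit for small RNA libraries as well as standard RNA-seq. Cyp7b1, Akr1d1 and Abcb11 overlap predicted genes of the GENCODE annotation, with which reads could be shared. RPKM carries no correction for differences in RNA composition between livers, so a change in a few abundant transcripts shifts all other values.

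Values were used as log2(RPKM + 1), and fold changes on this scale understate changes of low genes. Genes whose RPKM averaged 0.5 or more were tested in a single limma 3.58.1 fit (R 4.3.3) of the 4 groups, with a trend on the mean, two-sided p-values and Benjamini-Hochberg adjustment. No test of read counts was run. Mice were taken as replicates as labelled. Ratios of genes were compared by exact permutation of mice. Positions and exon lengths came from GENCODE vM21 (GRCm38, which is mm10), matched by symbol, and promoters from RefSeq. Depth was searched between 20 and 40 M reads as the value that brought RPKM values under 0.3 of single-exon genes closest to whole reads. Closeness was scored by the mean of a cosine with a period of 1 read. Values within 0.1 of a whole read were then counted as whole. Between 52.9% and 64.1% of these values came out whole per mouse, so depths are estimates. Python 3.11.15, numpy 2.4.6, pandas 2.3.3, scipy 1.17.1 and matplotlib 3.10.9 were used, and the fit was tested on simulated data.

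The 10 genes and all lists were chosen with earlier results of these data known. Named are the 10 genes, genes of the other bile acid lists called in any comparison, the 3 genes most like each called member, and Ppp6r3. The clock genes and cell type markers named singly are outside this rule. So are Nr5a2, Hnf4a, Fgfr4 and Klb, and the male-biased genes named singly, apart from Slco1a1. All of these were chosen after their values were seen. Replicate numbers did not pair mice (r of deviations from group means -0.173 to 0.332 over 25 same-numbered pairs). Alternatives were a pseudocount of 0.1, no filter or a filter at a mean RPKM of 1, 3 other scalings, only the groups compared, no trend, no moderation, the replicate block, the adjusted p alone and leaving out each mouse. Identity between proteins was not analysed here.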

Additional observations from a re-analysis of the deposited data

Results flagged for a closer look

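In 4 of 40 groups of values (10 genes in 4 groups), 1 mouse stood apart by Dixon's criterion, which chance meets in about 1 in 20 groups. Abcb11 was at 64.1 RPKM in LKO CD mouse 4, with the next mouse at 57.5. Baat was at 76.2 RPKM in FF CD mouse 4, with the next at 106 RPKM. Cyp7a1 was at 12.0 RPKM in FF HFD mouse 3 (next 20.9) and at 17.9 RPKM in LKO CD mouse 4 (next 29.7).

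The diet effect, HFD minus CD in log2(RPKM + 1), differed between LKO and FF mice for 9 bile acid genes (limma interaction, adjusted p). They were 1 of the 10 genes, 3 of the 13 other synthesis genes, 4 of the 14 other transporters and 1 of the 17 regulators tested, against 2.44% of all genes tested. The difference was 2.72 for Cyp7b1 (adjusted p = 0.000155) and 1.41 for Cyp2c70 (0.0134). It was -1.90 for Cyp46a1 (0.0422), -0.70 for Hsd17b4 (0.0273), -0.98 for Abcb1a (0.00778), -1.69 for Abcc3 (0.00558), -1.18 for Ephx1 (0.0368), -2.08 for Slco1a4 (0.0488) and -0.67 for Nr1i2 (0.0228). Leaving out 1 mouse ended the call for 14 of the 18 mice for Cyp46a1, 12 for Ephx1, 12 for Slco1a4, 5 for Hsd17b4 and 2 for Nr1i2, and for 0 of them for Cyp7b1, Cyp2c70, Abcb1a and Abcc3.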

How the results depend on the processing

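Of the 10 genes, 2 were called for diet in FF mice, 4 with the adjusted p alone and 3 with centring on the median (Slc10a1 added), and 2 to 3 with 1 mouse left out. For diet in LKO mice the count went from 1 to 0 with only the groups compared in the fit, and was 0 to 1 with a mouse left out. For genotype under CD it went from 1 to 0 with no filter, with no moderation and with the replicate number as a block (Cyp7b1 adjusted p = 0.056, limma), and was 0 to 1 with a mouse left out. For genotype under HFD it went from 1 to 2 with the same sum, quantile normalization, centring and the replicate block (Cyp8b1 adjusted p = 0.038, limma), and was 1 to 2 with a mouse left out. For the difference between diet effects it went from 1 to 3 with the same sum and to 2 with quantile normalization and the block, and was 1 to 2 with a mouse left out. The block changed no other count. With rescaling to the same sum Baat turned to 0.013 for diet in FF mice and to -0.0074 for genotype under HFD, and the correlations of Nr0b2 and of Cyp7a1 with Cyp8b1 turned to -0.14 and -0.050. With a mouse left out these correlations ranged from -0.11 to 0.45 and from -0.073 to 0.40, and the difference in the ratio of Abcb11 to Slc10a1 under CD from -0.16 to 0.049. Baat then ranged from -0.20 to 0.019 for diet in FF mice and from -0.046 to 0.11 for genotype under HFD, Cyp8b1 from -0.28 to 0.079 and Ephx1 from -0.036 to 0.23 for diet in LKO mice. The cause of these shifts was not tested. Of 1886 alternative values for 68 single-gene differences, 1791 kept direction and side of the threshold, 76 lost and 12 gained the call, and 7 changed sign. Of the 10 genes, Nr0b2 rests on the fewest reads, an estimated 94 to 519 per mouse.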
